A study of Mus musculus with 12 samples.

Results

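The comparison described here set a high-fat diet (HFD) against a control-fat diet (CFD) in the Tie2-Cre ribosome pulldown (IP) of mouse brain white matter. It used 6 of the 12 libraries of the series, chosen by their labels, namely the IP libraries of animals 489, 555 and 556 on CFD and of animals 516, 517 and 676 on HFD. All 6 mice had the genotype Tie2-Cre:Rpl22-HA and, by the study's methods, were male. CFD chow drew 10% and HFD chow 60% of its kcal from fat, and the age of these mice is not given in the sources used here. Every IP library came from 1 animal and was matched by an input library of that animal's white matter RNA. Of 24060 features in the count table, Rn45s, Lars2 and Mir6236 were dropped, and 14253 genes had enough counts to be tested. Per-library values below follow the order 489, 555, 556 for CFD IP and 516, 517, 676 for HFD IP, in counts per 1000000 counts of the scaled library (CPM) unless another unit is named.

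In RiboTag mice, Cre recombinase swaps the last exon of the ribosomal protein gene Rpl22 for a copy with a hemagglutinin (HA) tag, and an antibody to HA then collects the ribosomes of Cre-expressing cells together with the mRNAs they carry. The Tie2 promoter, whose mouse gene is Tek, drives Cre in endothelial cells and also in the blood lineage. Endothelial cells of brain vessels form the blood-brain barrier through tight junctions and selective carriers, and they sense lipids, insulin and cytokines from the blood.

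Library totals of the 6 IP libraries ranged from 28138509 to 33660708 counts. The 3 dropped features, led by the ribosomal RNA precursor Rn45s, held 40.4% to 44.2% of the counts in CFD IP and 17.7% to 20.03% in HFD IP. The groups did not overlap, at an exact permutation p of 0.1, the smallest that 3 animals against 3 allow. This left 16428115 to 17674174 counts in CFD IP and 23858792 to 26917495 in HFD IP. HFD IP 676 stood apart from the other pulldowns. It lacked any count of 401 tested genes, against 1415 to 2038 in the other 5. Over genes with a mean of at least 50 CPM it correlated with its own input at r = 0.937 (log2 CPM), where the other 5 animals gave 0.664 to 0.769. Results that rest on it are therefore also given without it.

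The label of an endothelial pulldown was checked against the markers, and the defining endothelial genes were near 0. Tek itself stood at 0, 0 and 5.72 CPM in CFD IP and 0, 0.0416 and 1.65 CPM in HFD IP. The adherens junction gene Cdh5 stood at 0.0664, 0.3702 and 1.22 CPM in CFD IP and 1.35, 0.208 and 0.115 CPM in HFD IP. The tight junction gene Cldn5 stood at 0, 0 and 0.644 CPM in CFD IP and 4.97, 0 and 0 CPM in HFD IP. Each of these was at or near 0 in most libraries of either diet. The VEGF receptor gene Kdr stood at 1.59, 2.59 and 0 CPM in CFD IP and 2.703, 0.0416 and 0.575 CPM in HFD IP. Its relative Flt1 was above 1 CPM in HFD IP 517 alone, at 0.465, 0 and 0.0716 CPM in CFD IP and 0.0872, 28.5 and 0.651 CPM in HFD IP. Of the 29 endothelial identity genes, 20 were tested, 6 had at most 3 counts in each of the 6 IP libraries, and 15 had no count in at least 3 of them. Per kb of gene length, the whole list summed to 44.5 to 249 CPM per kb in CFD IP and 13.3 to 62.2 in HFD IP, while the 20 neuron genes summed to 6980.3 to 8698 in CFD IP and 8094 to 10208 in HFD IP. The highest CFD IP sum, in animal 556, came mostly from Egfl7, a secreted vessel protein gene with 2.46, 1.54 and 261 CPM in CFD IP, and from the matrix gene Vwa1 with 6.18, 0.802 and 123 CPM. On log2 ratios of IP to its own input, with 0.5 CPM added, the summed endothelial identity list went both ways. It stood at 0.95, -0.89 and 2.39 on CFD and -1.07, 1.26 and -0.27 on HFD. The summed list of blood-brain barrier genes lay above its input in every animal, at 0.16 to 1.78. Spock2 led that sum, with 1285, 1368 and 2097 CPM in CFD IP and 1645, 1486 and 657 CPM in HFD IP. The libraries are therefore called the Tie2-Cre pulldown here, since the identity markers do not bear out an endothelial name.

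**Figure D1:**
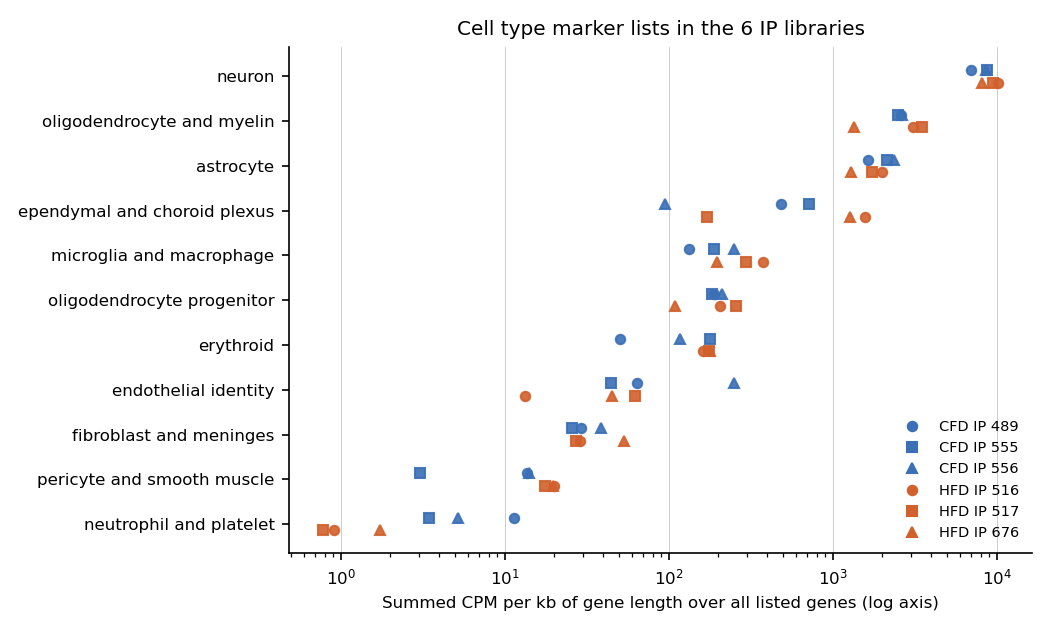
Summed CPM per kb of gene length (log axis) over every listed marker gene of 11 cell types, with 1 symbol per IP library, CFD in blue and HFD in orange. Neuron, myelin and astrocyte genes lay far above the endothelial list in all 6 libraries, and endothelial sums ranged from 13.3 to 249 CPM per kb with the diets overlapping.

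The genes that took most counts in the pulldown were neuronal and glial, and none of the 10 passed the test. Map1b, a microtubule-associated protein of axons, stood at 9022, 7233 and 7529 CPM in CFD IP and 8079, 8741 and 6425 CPM in HFD IP, a log2 fold change of -0.033 (SE 0.212). Camk2a, a synaptic kinase whose mRNA travels into dendrites, stood at 8349.7, 5782 and 7097 CPM in CFD IP and 6154, 5084 and 5759.6 CPM in HFD IP. Both neuronal genes varied by less than a factor of 2 among the 6 libraries. Slc1a2, the main glutamate carrier of astrocytes, varied more, at 3944, 9652 and 11576 CPM in CFD IP and 9114, 8149 and 4382 CPM in HFD IP. Mbp, a myelin protein, stood at 5776, 2628 and 2691 CPM in CFD IP and 3663, 4048 and 2119 CPM in HFD IP. The diets overlapped for all of these. In such bulk samples fewer cells of a type and less RNA per cell cannot be told apart.

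The question put to these libraries was what a high-fat diet does to the mRNAs bound by the pulled-down ribosomes. Few genes stood out. In edgeR's quasi-likelihood test 4 of 14253 genes had an adjusted p under 0.1, or 0.0281% of those tested, 2 higher (0.014%) and 2 lower (0.014%) in HFD IP. At an unadjusted p under 0.05, 1565 genes stood out, or 11%, 841 of them higher (5.9%) and 724 lower (5.08%). All 3 HFD IP libraries lay above all 3 CFD IP libraries in 818 genes (5.74%) and below them in 702 (4.93%). Over all tested genes, 50.3% had a fitted change above 0 and 49.4% below 0, and the median log2 fold change was 0.0091. Among the 4302 genes with a mean of at least 50 CPM, 44.3% were above and 55.7% below 0. The biological coefficient of variation was 115% among the 6 IP libraries and 84.9% among the 6 inputs, so replicates of a pulldown differed more than replicates of whole tissue. The edgeR p-values of the main fit rest on a spread estimated over all 12 libraries. IP and input of 1 animal were taken as independent in it. In edgeR's quasi-likelihood fit of the 6 IP libraries alone no gene passed, with a smallest adjusted p of 0.706. There 642 genes had an unadjusted p under 0.05. The number of genes passing depended on the test, from 0 with limma-voom, where 1282 genes had an unadjusted p under 0.05, to 207 (1.45%) with edgeR's likelihood ratio test, 217 (1.19%) with no filter on low counts and 713 (5%) with DESeq2.

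Both genes that rose were low or undetected on CFD. Dnttip2, a nucleolar protein, stood at 3.72, 3.58 and 1.503 CPM in CFD IP and 64.3, 64.2 and 42.3 CPM in HFD IP, so that the lowest HFD library lay far above every CFD library. It rose by a log2 fold change of 4.27 (SE 0.796, edgeR adjusted p = 0.0807), and the fitted change stayed between 3.98 and 4.48 when any 1 IP library was left out. In the inputs Dnttip2 stood at 14.3, 49.6 and 45.6 CPM on CFD and 103, 66.7 and 21.5 CPM on HFD, which overlap. 9330117O12Rik, a RIKEN transcript with no assigned function, had no count in any CFD IP library and stood at 104, 28.7 and 0.766 CPM in HFD IP. Against a floor of 3 counts per CFD library its mean was at least 223-fold higher (edgeR adjusted p = 0.0807). HFD IP 516 held 77.96% of its HFD CPM, and without that library the bound was 73.7-fold. The inputs of 9330117O12Rik did not overlap either, with every HFD input above every CFD input.

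Both genes that fell encode regulators of transcription. Pou6f1, a POU homeobox transcription factor at chr15:100575318-100600061 of GRCm38, stood at 221, 181 and 342 CPM in CFD IP and 27.5, 51.1 and 67.2 CPM in HFD IP. Its log2 fold change was -2.35 (SE 0.436, edgeR adjusted p = 0.0807), within -2.63 to -2.04 without any 1 IP library. Nab2, a corepressor that binds EGR transcription factors, lies at chr10:127660918-127666703 and stood at 248, 329.8 and 165 CPM in CFD IP and 57.1, 35.7 and 54.6 CPM in HFD IP. It fell by a log2 fold change of 2.33 (SE 0.436, edgeR adjusted p = 0.0807), within -2.54 to -2.06 without any 1 library. The input of Nab2 overlapped between the diets, at 51.5, 72.6 and 106 CPM on CFD and 64.8, 80.1 and 80.9 CPM on HFD. That of Pou6f1 did not overlap, and every HFD input lay under every CFD input, on the same side as the pulldown. With 1 IP library left out, Nab2 passed the threshold only without CFD IP 556, 9330117O12Rik only without HFD IP 676, and Dnttip2 and Pou6f1 in none of the 6 fits. The 4 calls were thus lost in most of these fits while the direction of each change stayed the same.

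Next, 16 genes with a mean of at least 50 CPM were picked for the widest gap between the diets, 8 in each direction, so their lack of overlap follows from the choice, and only Pou6f1 and Nab2 among them passed the test. The background to this choice is that 4.88% of the 4302 genes at this level lay wholly above and 8.48% wholly below. Among the genes higher in HFD IP, Serinc1, a membrane protein of the serine incorporator family, was the most abundant. It lies at chr10:57515774-57532529 and stood at 162, 249.7 and 242 CPM in CFD IP and 547, 599.7 and 584 CPM in HFD IP, a log2 fold change of 1.404 (SE 0.299, edgeR adjusted p = 0.228). Eif3e, a subunit of the translation initiation factor eIF3, lies at chr15:43250040-43282736 and stood at 26.4, 24.7 and 15.03 CPM in CFD IP and 121, 101 and 81.8 CPM in HFD IP, a log2 fold change of 2.197 (SE 0.503, edgeR adjusted p = 0.259). Ireb2, an RNA-binding protein that adjusts ferritin and transferrin receptor mRNAs to the iron supply, stood at 17.7, 22.2 and 8.09 CPM in CFD IP and 75.8, 131 and 72.4 CPM in HFD IP. These 3 kept a log2 difference of at least 1.23, 2.001 and 2.22 without any 1 library. Tgfb2, a ligand of the TGF-beta family, stood at 25.4, 40.05 and 11.9 CPM in CFD IP and 78.4, 130.4 and 105 CPM in HFD IP. Prickle1, a planar cell polarity gene, stood at 51.4, 63.1 and 58.6 CPM in CFD IP and 157, 138 and 139 CPM in HFD IP, close together on either diet. Mesdc2, a chaperone of LDL receptor family proteins, stood at 24.8, 19.9 and 24.2 CPM in CFD IP and 52.05, 114 and 77.4 CPM in HFD IP. Klhl7, a substrate adaptor of a ubiquitin ligase, stood at 14.6, 20.2 and 31.1 CPM in CFD IP and 89.8, 61.7 and 91.5 CPM in HFD IP. For these 4 the log2 fold changes without any 1 library ran from 1.249 for Prickle1 to 2.51 for Tgfb2. Genes picked for a gap between all libraries of the diets keep their side in such fits by that choice. Fubp3, a nucleic acid-binding protein, was the most uneven of these, at 0.598, 0.185 and 27.3 CPM in CFD IP and 179, 53.3 and 62.96 CPM in HFD IP, and its log2 fold change moved from 2.63 to 7.98 as single libraries were left out.

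The genes with the widest gap in the other direction were not of 1 kind. Kansl3, a subunit of a histone acetyltransferase complex, stood at 186, 151 and 173 CPM in CFD IP and 24.3, 40.1 and 49.6 CPM in HFD IP, a log2 fold change of -2.16 (SE 0.479, edgeR adjusted p = 0.248). Nyap1, a neuronal adaptor of PI3 kinase, stood at 71.02, 122 and 177 CPM in CFD IP and 18.7, 9.65 and 6.63 CPM in HFD IP. Igsf9b, an adhesion protein of inhibitory synapses, stood at 45.1, 117 and 128 CPM in CFD IP and 17.5, 2.21 and 14.7 CPM in HFD IP. Lrp3, of the LDL receptor-related family, stood at 185, 179.9 and 147 CPM in CFD IP and 28.3, 7.07 and 34.1 CPM in HFD IP. Its inputs overlapped, at 55.2, 23.3 and 16.1 CPM on CFD and 8.24, 4.45 and 36.1 CPM on HFD. Rabif, which handles Rab GTPases, stood at 72.5, 77.8 and 119 CPM in CFD IP and 1.48, 16.3 and 17.5 CPM in HFD IP. Cenpb, which binds centromeric DNA, stood at 136, 148 and 117 CPM in CFD IP and 51.2, 50.4 and 39.8 CPM in HFD IP. Without any 1 library the log2 fold changes of these 6 genes stayed between -3.91 for Nyap1 and -1.37 for Cenpb. That they kept their side again follows from the choice.

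**Figure D2:**
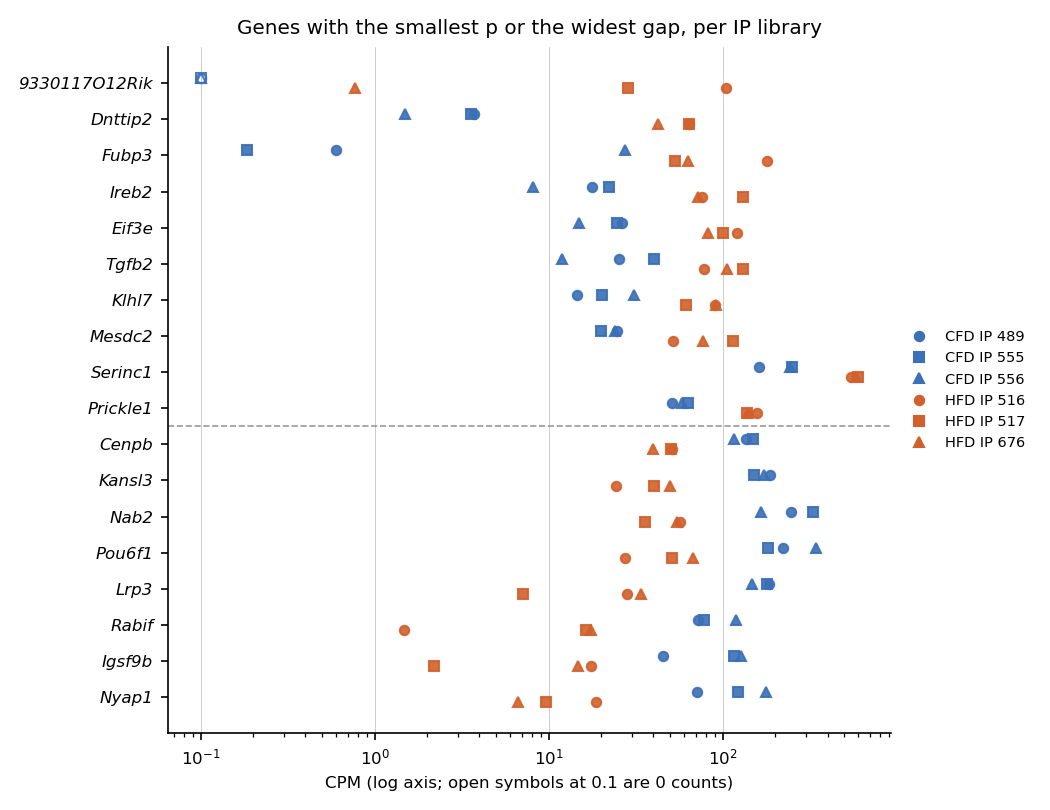
CPM (log axis) of the 4 called genes and the genes with the widest gap between the diets, with 1 symbol per IP library, CFD in blue and HFD in orange, and open symbols at the left edge for 0 counts. Genes above the dashed line were higher and genes under it lower in HFD IP; Serinc1 stood at 162, 249.7 and 242 CPM on CFD and 547, 599.7 and 584 CPM on HFD.

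Many differences rested on 1 library, and how many depended on the level of the gene. Of all tested genes, 2137 (14.99%) had over 90% of the CPM of the higher group in 1 library. The share was 61.6% of genes with a mean under 1 CPM, 12.7% at 5 to 20 CPM, 0.495% at 50 to 100 CPM, and 0% from 200 CPM upward. The median largest share was 57.4% in CFD IP and 56.4% in HFD IP, against 51.1% and 46.6% in the inputs. Of the 1565 genes with an unadjusted p under 0.05, 261 (16.7%) rested on 1 library by this measure, 331 (21.2%) kept such a p whichever IP library was left out, and 111 (7.09%) turned direction in at least 1 of those fits. Genes under 5 CPM gave 395 of them, 292 higher and 103 lower, of which 169 rested on 1 library and 78 turned direction. Genes with a mean of at least 50 CPM gave 599, 210 higher and 389 lower, of which 3 rested on 1 library, 7 turned direction and 137 kept their p throughout. HFD IP libraries held more counts after the 3 features were dropped, as given above, and the part of depth in the excess of higher genes at low levels was not tested. Among the 841 higher genes, HFD IP 516 held the largest share in 401, 517 in 268 and 676 in 172. Among the 724 lower genes, CFD IP 489 was the largest in 192, 555 in 235 and 556 in 297.

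**Figure D3:**
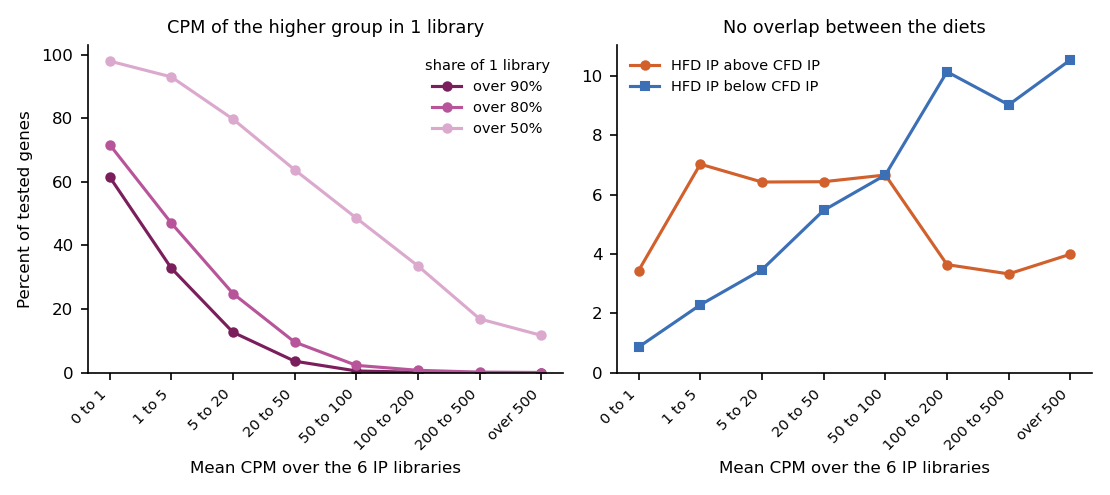
Percent of tested genes, by mean CPM over the 6 IP libraries, whose higher group had over 90%, 80% or 50% of its CPM in 1 library (left), and percent whose diets did not overlap, higher in orange and lower in blue (right). Dependence on 1 library fell from 61.6% of genes under 1 CPM to 0% from 200 CPM upward at the 90% mark, and above 100 CPM more genes lay wholly lower than wholly higher.

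The genes with the smallest p among those resting on 1 library show what such a difference looks like. Ttc21a, a gene of ciliary transport, stood at 0, 0 and 0 CPM in CFD IP and 159, 7.16 and 1.38 CPM in HFD IP. Adck2, a kinase-like mitochondrial gene, stood at 1.99, 0.247 and 4.72 CPM in CFD IP and 249, 8.45 and 15.4 CPM in HFD IP, and its log2 fold change dropped from 5.29 to 2.36 in the least favourable fit without 1 library. Polr3gl, a subunit gene of RNA polymerase III, stood at 1.59, 182 and 1.65 CPM in CFD IP and 3.09, 0.0416 and 1.26 CPM in HFD IP, so that 1 CFD library held 98.3% of its CFD CPM and the log2 fold change moved from -5.39 to -0.13 in the fit nearest to 0. Mlxipl, which encodes the carbohydrate-sensing factor ChREBP, stood at 46.2, 0.123 and 0 CPM in CFD IP and 0.0436, 0 and 0 CPM in HFD IP, with 99.7% of its CFD CPM in animal 489. Dnaic2, a dynein subunit of motile cilia, stood at 88.1, 1.54 and 0.0716 CPM in CFD IP and 0, 0.125 and 0 CPM in HFD IP, with 98.2% in the same library. None of these passed the adjusted threshold.

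Il17rb and Cxcl5 were looked up by name, since IL-17 signalling was a subject of the study. Il17rb, a receptor of IL-17 family cytokines, had 904 counts in HFD IP 517, 1 in HFD IP 516 and 1 in HFD IP 676, and 1, 0 and 0 in CFD IP. Animal 517 thus held 99.8% of its HFD CPM, the edgeR adjusted p was 0.3204, and the log2 fold change was 0.74 in the lowest of the fits without 1 library. The log2 ratio of IP to its own input, with 0.5 CPM added, was -0.34, -0.12 and -0.13 on CFD. On HFD it was -3.09, 3.06 and -4.15. The inputs of HFD animals 516 and 676 thus held Il17rb that their pulldowns nearly lacked, so on HFD it was not confined to animal 517. Cxcl5, a chemokine, stood at 0, 0 and 0 CPM in CFD IP and 1.83, 44.2 and 0.0383 CPM in HFD IP and was not tested, since its counts lay in too few libraries to pass the filter.

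Ribosomal protein genes lay mostly below 0. Of 82 cytosolic ribosomal protein genes, 79 were tested, of which 17 had a fitted change above and 62 below 0. The median of their log2 fold changes was -0.31, against 0.0091 over all tested genes. The diets did not overlap in 14 genes on the lower side and 2 on the higher side, 17.7% and 2.53% of those tested, where all genes gave 4.93% and 5.74%. Of the 46 members with a mean of at least 50 CPM, 12 lay wholly lower and 0 wholly higher. All genes at that level gave 8.48% and 4.88%. Their summed level was 6774, 7087 and 6949 CPM in CFD IP and 5256, 4355 and 5708 CPM in HFD IP, so that every HFD library lay under every CFD library. The median stayed between -0.44 and -0.32 without any 1 library, and was -0.43 without HFD IP 676. Rps15, of the small subunit, stood at 174, 143 and 281 CPM in CFD IP and 86.7, 57.1 and 105 CPM in HFD IP. Rpl41, of the large subunit, stood at 181, 211 and 303 CPM in CFD IP and 74.02, 132 and 136 CPM in HFD IP. Rpl10a, of the same subunit, stood at 74.3, 96.7 and 131 CPM in CFD IP and 47.3, 9.65 and 44.4 CPM in HFD IP, with the lowest value in animal 517. In all 3 every HFD library was under every CFD library. No ribosomal protein gene passed the adjusted threshold, and processed copies of these genes make single values uncertain. In the inputs the same list had 39 genes above and 40 below 0. The share of Rn45s, which was also lower in every HFD IP library, moved with this list, and its part was not tested.

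Translation factors did not share 1 direction, with 29 of 61 tested genes above 0 and a median log2 fold change of -0.048, and 3 lay wholly higher and 6 wholly lower in HFD IP, 4.92% and 9.84% of those tested, against 5.74% and 4.93% over all genes. Eif4h, a helper of the helicase eIF4A, stood at 381, 501 and 575 CPM in CFD IP and 167, 246 and 201 CPM in HFD IP, a log2 fold change of -1.25 (SE 0.358) that stayed between -1.39 and -1.09 without any 1 library. Eif5a, which helps ribosomes past difficult peptide bonds, stood at 268, 149 and 236 CPM in CFD IP and 82.8, 81.1 and 139 CPM in HFD IP. Against these stood Eif3e, given above, on the higher side.

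The proteasome, which degrades ubiquitin-tagged proteins, had most of its genes above 0. Of 39 genes, 37 were tested, 29 above and 8 below 0, and the median of their log2 fold changes was 0.67 and stayed between 0.47 and 0.87 without any 1 library. There were 6 genes wholly higher and 1 wholly lower in HFD IP, 16.2% and 2.703% of those tested, against 5.74% and 4.93% over all genes. The summed level was 1610.5, 1302 and 1195 CPM in CFD IP and 1748, 1906 and 1991 CPM in HFD IP, again without overlap. Psma2, a ring subunit of the core, stood at 22.5, 29.5 and 19.5 CPM in CFD IP and 65.95, 63.3 and 70.8 CPM in HFD IP, with little spread on either diet. Psmd11, of the regulatory lid, stood at 33.02, 27.8 and 19.7 CPM in CFD IP and 160.3, 68.2 and 56.9 CPM in HFD IP. Psma5, another ring subunit, stood at 16.9, 0.185 and 2.79 CPM in CFD IP and 47.8, 26.1 and 53.6 CPM in HFD IP. Psmd11 was highest in animal 516 and Psma5 nearly absent in animal 555. Without HFD IP 676 the median was 0.47.

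Chaperones of the heat shock and unfolded protein response had 21 of 32 tested genes above 0. The median of their log2 fold changes was 0.26, and 0.092 without HFD IP 676, the lowest of the fits without 1 library. Hsp90b1, the HSP90 of the endoplasmic reticulum, stood at 238, 294 and 275 CPM in CFD IP and 430.1, 443 and 396 CPM in HFD IP, with narrow ranges on both diets. Dnaja1, a cochaperone of HSP70, stood at 94.7, 154 and 155 CPM in CFD IP and 192, 202 and 289 CPM in HFD IP. Xbp1, the transcription factor of the unfolded protein response, lay on the other side at 103, 129 and 49.01 CPM in CFD IP and 16.96, 17.1 and 48.9 CPM in HFD IP. The CFD and HFD libraries of Xbp1 nearly touched, at 49.01 CPM in CFD IP 556 and 48.9 CPM in HFD IP 676.

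Genes of the respiratory chain were mostly on the higher side, by small amounts. Of 76 nuclear genes of the chain and ATP synthase, all tested, 49 had a fitted change above and 27 below 0. The median was 0.24 on the log2 scale, with 7 genes wholly higher and 1 wholly lower, 9.21% and 1.32% of those tested, against 5.74% and 4.93% over all genes. Among its 35 members with a mean of at least 50 CPM, 29 were above 0 with a median of 0.47. Atp5b, the catalytic subunit of ATP synthase, stood at 876, 751 and 1089.6 CPM in CFD IP and 1678, 1239 and 1392 CPM in HFD IP, a log2 fold change of 0.67 (SE 0.253) that stayed between 0.54 and 0.84. Ndufa4, of the cytochrome oxidase, stood at 82.3, 61.3 and 36.6 CPM in CFD IP and 257, 85.3 and 87.1 CPM in HFD IP, with its highest value in animal 516. That animal weighed on the whole list, whose median was 0.071 without it. No mitochondrially encoded gene was listed in the table.

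Oxidant defence genes had more genes wholly higher in HFD IP than the other function lists, as a share of those tested. Of 29 genes, all tested, 7 lay wholly higher and 1 wholly lower, 24.1% and 3.45% of those tested, against 5.74% and 4.93% over all genes. The median fold change was 0.59 on the log2 scale. Prdx1, a peroxide-reducing enzyme, stood at 19.3, 14.9 and 16.7 CPM in CFD IP and 102, 36.4 and 64.6 CPM in HFD IP, a log2 fold change of 1.999 (SE 0.565, edgeR adjusted p = 0.295). Gsr, which regenerates glutathione, stood at 3.72, 6.23 and 5.65 CPM in CFD IP and 32.3, 38.4 and 25.1 CPM in HFD IP. Nfe2l2, the transcription factor NRF2 of the antioxidant response, stood at 9.04, 12.6 and 14.8 CPM in CFD IP and 122, 20.3 and 29.6 CPM in HFD IP. The difference of Nfe2l2 leaned on animal 516 with 71.03% of the HFD CPM, while that of Gsr did not lean on any library. Without HFD IP 676 the list's median was 0.45. Over members with a mean of at least 50 CPM alone, however, it was 0.058, with 7 of 13 above 0.

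Lipid genes did not move as a block. Of 38 tested genes of fatty acid uptake, synthesis and oxidation, 18 were above and 20 below 0. The median log2 fold change was -0.13, turning to 0.28 without CFD IP 555. In HFD IP 1 gene lay wholly higher and 0 wholly lower, 2.63% and 0% of those tested, against 5.74% and 4.93% over all genes. Slc27a1, a fatty acid transporter, stood at 41.4, 28.4 and 12.7 CPM in CFD IP and 249, 59.6 and 58.7 CPM in HFD IP, without overlap but with 67.7% of the HFD CPM in animal 516. Acadm, a dehydrogenase of beta oxidation, stood at 6.44, 1.79 and 2.79 CPM in CFD IP and 1.57, 52.8 and 14.7 CPM in HFD IP. Acsl5, which activates fatty acids, stood at 182, 49.7 and 114 CPM in CFD IP and 18.1, 71.1 and 34.6 CPM in HFD IP. The diets overlapped in both. Cholesterol genes leaned lower, with 16 of 25 below 0, a median of -0.37, no gene at an unadjusted p under 0.05 on the higher side and 5 on the lower side where 5.08% of all genes were. That median ranged from -0.61 to -0.296 without any 1 library and was -0.18 with the trend on GC content removed. Srebf2, the master transcription factor of cholesterol synthesis, stood at 157, 219 and 389 CPM in CFD IP and 155, 157 and 98.9 CPM in HFD IP. Cyp51, an enzyme of the pathway, stood at 21.8, 205 and 69.4 CPM in CFD IP and 37.4, 12.7 and 36.1 CPM in HFD IP. Abca1, which exports cholesterol, stood at 20.9, 285 and 91.7 CPM in CFD IP and 42.5, 39.2 and 42.4 CPM in HFD IP. The values of the last pair were set by CFD IP 555, which held 69.2% and 71.7% of the CFD CPM, and without the strongest library their log2 fold changes were -0.67 and -0.44.

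Insulin, IGF and leptin signalling genes had 11 of 30 above 0, and their median was -0.25 on the log2 scale. Without CFD IP 555 it was 0.031, with 15 of 30 above 0, and without HFD IP 516 it was -0.401. Tsc1, a brake on mTOR, stood at 237, 289.6 and 91.9 CPM in CFD IP and 32.2, 68.2 and 70.4 CPM in HFD IP, a log2 fold change of -1.85 (SE 0.523, edgeR adjusted p = 0.295) with no overlap. Irs1, the adaptor of the insulin receptor, stood at 90.8, 318 and 51.7 CPM in CFD IP and 27.2, 25.7 and 71.7 CPM in HFD IP and overlapped. Igfbp2, which binds IGFs, stood at 1.26, 23.2 and 1.002 CPM in CFD IP and 24.1, 423 and 24.2 CPM in HFD IP, and animal 517 held 89.8% of its HFD CPM.

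Activity-regulated genes leaned lower. Of 24 tested immediate early genes and NAB corepressors, 16 were below 0, and their median was -0.39 on the log2 scale. Among members with a mean of at least 50 CPM 10 of 11 were below 0, where 55.7% of all genes at that level were. The list's median was -0.12 without HFD IP 516, -0.15 without CFD IP 556 and -0.196 with the trend on GC content removed. Their sum was 2633, 2229 and 3645 CPM in CFD IP and 1831, 2010.03 and 1642 CPM in HFD IP, without overlap. Arc, a regulator of synaptic strength, stood at 526, 231 and 448 CPM in CFD IP and 160.2, 97.8 and 300.3 CPM in HFD IP, which overlap. Its inputs stood at 214, 263 and 299.6 CPM on CFD and 106, 112 and 133 CPM on HFD, which do not. Egr1, a transcription factor that NAB proteins repress, stood at 745, 554 and 1049 CPM in CFD IP and 458, 573 and 372 CPM in HFD IP, and its inputs at 646, 746 and 973 CPM on CFD and 408, 707 and 314 CPM on HFD. The input median of the list was -0.68, on the same side as the pulldown. For Nab2 the interaction of diet and fraction was -2.304 on the log2 scale (SE 0.595, edgeR adjusted p = 0.879).

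The vascular lists rested on few counts. Of 28 blood-brain barrier genes, 26 were tested, 15 above and 11 below 0. Their median log2 fold change of 0.72 became -0.17 without HFD IP 517, 0.062 without HFD IP 676 and -0.068 over genes that also had a mean of at least 20 CPM. Of the tested genes, 10 had over 90% of the higher group in 1 library. Slc6a6, the taurine carrier, stood at 145, 87.4 and 139 CPM in CFD IP and 691, 247 and 131 CPM in HFD IP, which overlap. Cgn, a tight junction scaffold, stood at 0.199, 0 and 0.501 CPM in CFD IP and 33.9, 11.3 and 4.48 CPM in HFD IP. Slco1a4, an organic anion carrier of the barrier, stood at 1.46, 0.185 and 0 CPM in CFD IP and 72.7, 0.0832 and 1.92 CPM in HFD IP, with 97.3% of the HFD CPM in animal 516. Among the better measured genes, Slc2a1, the glucose carrier, stood at 80.5, 71.4 and 91.2 CPM in CFD IP and 51.04, 55.3 and 31.6 CPM in HFD IP, wholly lower on HFD. Tjp1, a tight junction scaffold that other cells also express, stood at 273, 261 and 201 CPM in CFD IP and 175, 349 and 238 CPM in HFD IP, which overlap.

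Among endothelial identity genes, 11 of 20 rested on 1 library. Their median log2 fold change was 1.22, or 0.599 with the 6 genes at or under 3 counts throughout a diet set to their bound or left out, 1.09 without HFD IP 676 and 0.37 without HFD IP 516. It turned to -2.33 in the fit of the 6 IP libraries alone, which kept 7 of the genes (2 above 0), and to -3.43 over the 4 genes with a mean of at least 20 CPM (1 above 0). Clec14a, a lectin of vessel walls, had no count in any CFD IP library or in HFD IP 516 and stood at 74.1 CPM in HFD IP 517 and 2.15 CPM in HFD IP 676. Egfl7 stood at 2.46, 1.54 and 261 CPM in CFD IP and 2.31, 0.0416 and 5.82 CPM in HFD IP, and its log2 fold change moved from -5.01 to 0.45 when CFD IP 556 was left out. Of genes of vessel growth and signalling, 19 of 36 were above 0 with a median of 0.047, or -0.078 to 0.304 without any 1 library. Notch1 stood at 10.4, 20.1 and 11.2 CPM in CFD IP and 45.2, 134 and 18.97 CPM in HFD IP, with HFD IP 516 and 517 above and 676 within the range of CFD IP. Its target Hey1 stood at 56.8, 321 and 54.6 CPM in CFD IP and 58.5, 37.1 and 37.8 CPM in HFD IP. The ligand Vegfb stood at 40.7, 156 and 59.1 CPM in CFD IP and 28.6, 31.5 and 19.2 CPM in HFD IP. Hey1 was set by CFD IP 555, with a log2 fold change of -0.31 in the fit nearest to 0. Of 24 basement membrane genes, 16 were above 0 and none separated the diets, and their median of 0.49 became -0.043 without HFD IP 676 and 0.058 without HFD IP 516. Lamc1, a laminin chain, stood at 48.8, 70.2 and 68.7 CPM in CFD IP and 573, 51.6 and 38.7 CPM in HFD IP, where 1 library held 86.4% of the HFD CPM. Of leukocyte adhesion genes and integrins, 12 of 15 were above 0 with a median of 0.196, and none separated the diets. Over all tested genes only 5.74% lay wholly higher and 4.93% wholly lower, so lists this short can lack such genes. Without HFD IP 517 the median was -0.23 with 6 of 15 above 0, and without CFD IP 489 it was 0.045 with 8.

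Immune lists were low as well. The NF-kappaB list had 20 tested genes, 10 above and 10 below 0, and 4 lay wholly lower and 0 wholly higher in HFD IP, 20% and 0% of those tested, against 4.93% and 5.74% over all genes. Nfkbia, the inhibitor that NF-kappaB itself induces, stood at 12.8, 26.7 and 13.95 CPM in CFD IP and 0.0872, 0.0416 and 1.95 CPM in HFD IP. Irak1, a kinase of IL-1 and Toll-like receptors, stood at 58.6, 86.6 and 64.4 CPM in CFD IP and 27.2, 31.1 and 24.7 CPM in HFD IP. Both lay wholly lower in HFD IP with all 3 CFD libraries well above. Nfkbiz, an inducible cofactor that was listed with the IL-17 adaptors, stood at 9.17, 28.1 and 0.286 CPM in CFD IP and 0, 0.0832 and 0.805 CPM in HFD IP, which overlap. The median of the NF-kappaB list was -0.26 and ranged from -1.03 to 0.79 without any 1 library, turning above 0 without CFD IP 556. Of 10 tested genes of the IL-17 family and its adaptors, 3 were above 0 (median -0.22, or -0.66 to 0.032 without any 1 library), and none separated the diets. Of 10 tested chemokines and receptors, 8 were above 0 and none separated the diets. Their median of 0.96 ranged from 0.43 without CFD IP 555 to 1.38 without CFD IP 489, was 0.26 over the 3 genes with a mean of at least 20 CPM. Without HFD IP 517, and likewise without HFD IP 676, 6 of the 10 genes were above 0. The interferon and antigen presentation list had 15 of 27 above 0. Its median log2 fold change was 1.13, but -0.31 without HFD IP 516 and 0.18 without HFD IP 676. In HFD IP 3 of its genes lay wholly higher and 0 wholly lower, 11.1% and 0% of those tested. All genes gave 5.74% and 4.93%. Per kb of gene length the list summed to 74.5 to 106 CPM in CFD IP and 134 to 180 in HFD IP, without overlap. In plain CPM its sums overlapped, at 144 to 253 in CFD IP and 217 to 326 in HFD IP. H2-K1, a class I antigen-presenting molecule, stood at 0.9302, 3.15 and 0.143 CPM in CFD IP and 0.785, 59.4 and 22.6 CPM in HFD IP. Ifit3, an interferon-induced gene, stood at 0.332, 43.2 and 5.72 CPM in CFD IP and 0, 1.41 and 0.536 CPM in HFD IP. The diets overlapped in both.

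Other cell types were compared to see whether their markers moved with diet. Neuron genes had 9 of 20 above 0 (median -0.042), myelin genes 9 of 18 (median 0.0016), and astrocyte genes 5 of 14 (median -0.28). Without HFD IP 676 these became 13 of 20 (median 0.101), 15 of 18 (median 0.31) and 6 of 14 (median -0.15). The even split of the myelin list thus rested on that library. Within the astrocyte list, Gfap, the astrocyte filament, stood at 199.7, 255 and 226 CPM in CFD IP and 51.3, 90.6 and 123 CPM in HFD IP (log2 fold change -1.36, SE 0.394). Gja1, a gap junction gene of the same cells, stood at 11.2, 34.3 and 33.7 CPM in CFD IP and 120.4, 49.6 and 66.8 CPM in HFD IP (log2 fold change 1.58, SE 0.582). Neither overlapped between the diets, and they lay on opposite sides. Of the 14 astrocyte genes 3 lay wholly lower and 1 wholly higher in HFD IP, 21.4% and 7.14%. All tested genes gave 4.93% and 5.74%. However, 12 of the 14 had a mean of at least 50 CPM, a level at which all genes gave 8.48% and 4.88%. Aldoc was also wholly lower, at 564, 413 and 445 CPM in CFD IP and 378, 373 and 361 CPM in HFD IP. So was Atp1b2, at 621, 608 and 648 CPM in CFD IP and 595, 429 and 375 CPM in HFD IP. Microglia and macrophage genes had 11 of 18 above 0 and a median of 0.59, which was 0.11 without HFD IP 517 and 1.102 without CFD IP 489, with 244, 274 and 323 CPM in all on CFD and 546, 596 and 319 CPM on HFD, and no gene of the list separated the diets. The sums overlapped through HFD IP 676. Myelin sums were 9164, 7908 and 8085 CPM on CFD and 9923, 11139.6 and 4476 CPM on HFD, and Opalin, a late myelin gene, stood at 9.302, 0.185 and 0.215 CPM in CFD IP and 48.95, 14.5 and 7.32 CPM in HFD IP. Of 14 oligodendrocyte progenitor genes, 6 were above and 8 below 0, with a median of -0.17 that ranged from -0.38 to 0.17 without any 1 library. The matrix gene Vcan and the receptor gene Pdgfra, chosen as those of smallest p, went against most of the list. Vcan stood at 7.24, 22.03 and 7.87 CPM in CFD IP and 31.2, 82.6 and 27.4 CPM in HFD IP. Pdgfra, a growth factor receptor gene, stood at 1.86, 15.5 and 12.2 CPM in CFD IP and 30.99, 90.3 and 20.2 CPM in HFD IP. Neither overlapped, and both were highest in animal 517. Of pericyte genes, Rgs5 stood at 0.532, 1.42 and 1.86 CPM in CFD IP and 16.6, 16.5 and 14.9 CPM in HFD IP, an even difference at low level. The list as a whole summed to 45.7, 14.3 and 87.8 CPM on CFD and 87.4, 64.1 and 53.95 CPM on HFD. Choroid plexus and ependymal genes ranged from 138 to 944 CPM in CFD IP and from 297 to 2115 CPM in HFD IP, which overlap.

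**Figure D4:**
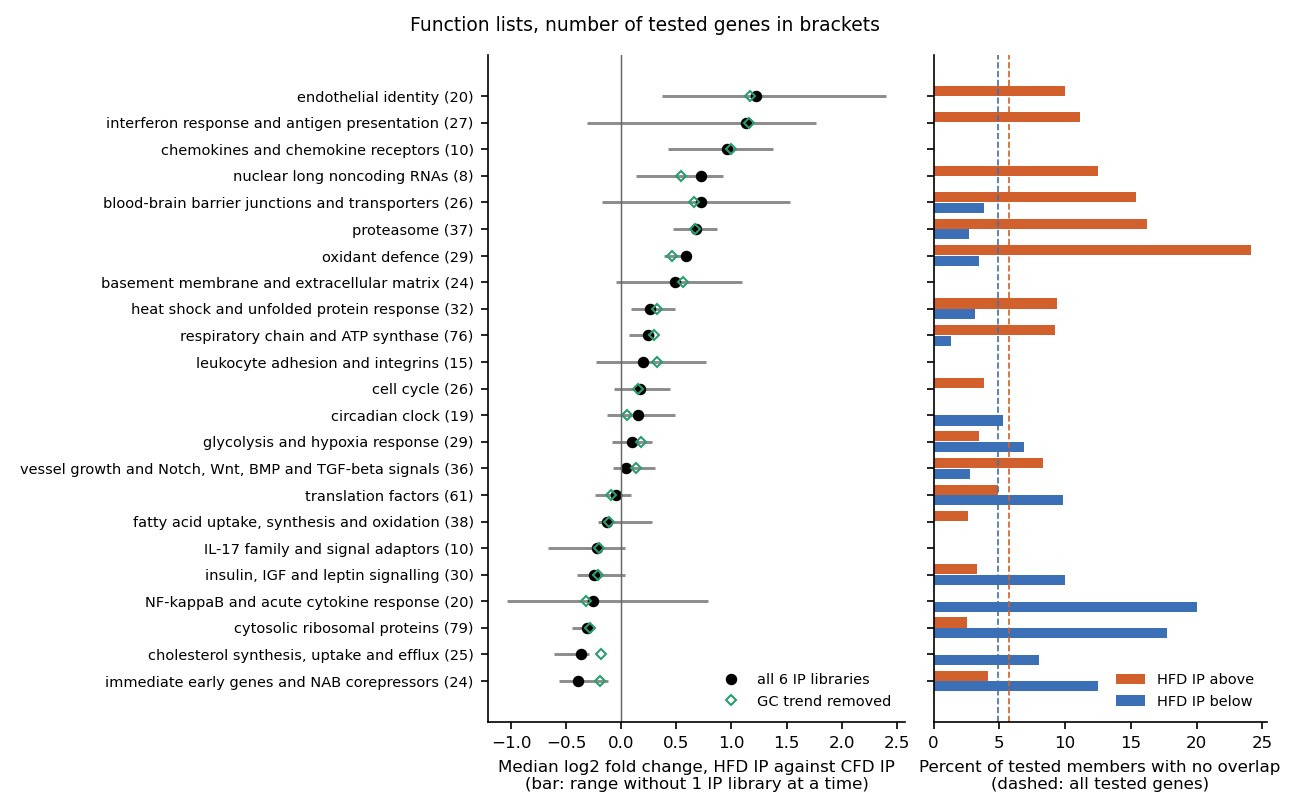
Left, median log2 fold change between HFD IP and CFD IP of the tested genes of each function list (black), with the range over fits without 1 IP library (grey bar) and the value with the trend on GC content removed (green). Right, percent of tested members whose diets did not overlap, with dashed lines for all tested genes at 5.74% higher and 4.93% lower. Ribosomal proteins (median -0.31) and the proteasome (median 0.67) kept their side in every fit without 1 library. So did other lists, among them the respiratory chain, oxidant defence and cholesterol lists. The endothelial bar, from 0.37 to 2.403, also stayed above 0.

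The difference between the diets also followed the base composition of the transcripts. GC content was known for 99.1% of tested genes, from the longest transcript of each gene in GENCODE M21. Among genes with a mean of at least 50 CPM, the median log2 fold change went from 0.21 in the lowest of 10 bins of GC content to -0.36 in the highest. The share wholly higher in HFD IP went from 12.8% to 0.9302% and the share wholly lower from 2.09% to 16.98% between the same bins. The inputs sloped the same way, from 0.071 to -0.28. Of the genes named above, Eif3e (36.2% GC), Ireb2 (38.98%) and Serinc1 (40.8%) were higher and Nab2 (60.1%), Lrp3 (62.9%) and Pou6f1 (56.3%) lower, while Prickle1 (51.8%) was higher and Rabif (47.6%) lower. With the trend removed, in an alternative added after the data were seen, no gene passed an adjusted p under 0.1, 1482 genes had an unadjusted p under 0.05, and the log2 fold changes of Dnttip2, Pou6f1, Nab2 and Serinc1 were 4.103, -2.08, -1.997 and 1.14. The log2 fold changes of Rabif and Prickle1 were -2.93 and 1.33 before and -3.002 and 1.41 after the correction, so these became larger in size. 9330117O12Rik had no known GC content and was not in this fit. The medians of the ribosomal protein and proteasome lists were then -0.29 and 0.67, those of the cholesterol and immediate early lists moved nearer to 0 as given above, and that of the oligodendrocyte progenitor list turned from -0.17 to 0.17.

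**Figure D5:**
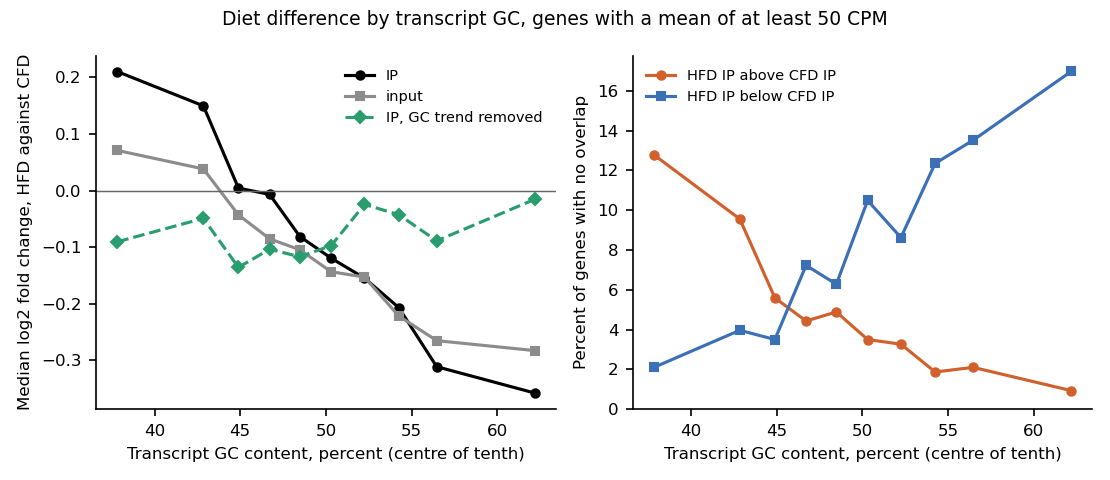
Left, median log2 fold change between the diets in IP (black), input (grey) and IP with the GC trend removed (green), over 10 equal bins of transcript GC content, for genes with a mean of at least 50 CPM. Right, percent of these genes whose IP libraries did not overlap between the diets; the lower share reached 16.98% and the higher share 0.9302% in the bin of highest GC content.

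Whether a difference was particular to the pulldown was asked with the interaction of diet and fraction. No gene had an adjusted p under 0.1 for it with edgeR's quasi-likelihood test, 753 (5.28%) had an unadjusted p under 0.05, and DESeq2 gave 117 (0.821%) at an adjusted p under 0.1. Between the inputs of the diets no gene passed either, with 278 genes (1.95%) at an unadjusted p under 0.05. DESeq2 gave 27 genes (0.189%) between the inputs and edgeR with no filter 2 (0.0109%). Serinc1 is an example. Its inputs stood at 543, 401 and 648 CPM on CFD and 326, 390.1 and 505 CPM on HFD, so that in every CFD animal the pulldown lay under the input and in every HFD animal above it, and the interaction had a log2 value of 1.79 (SE 0.419, edgeR adjusted p = 0.879).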

How the data were processed

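Counts per gene and library were deposited by the authors as whole numbers, not normalized. Per the labels and the study's methods, paired-end reads were aligned with STAR to mm10, and the submitters' processing notes also list HTSeq. The strand setting is not given in the sources used here, and genes that overlap, face each other or have near-identical copies are uncertain. The labels and the methods name different library kits. FPKM deposited by the authors served only to derive gene lengths. The authors' own edgeR fold changes and p-values, and 18 other per-sample columns, were not used.

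Rn45s, Lars2 and Mir6236 were dropped. Genes were kept by filterByExpr over the 4 groups (minimum count 10, minimum total 15) and scaled by TMM. A model of 4 group means was fitted to all 12 libraries with glmQLFit of edgeR 4.0.16 in R 4.3.3, as in the study's use of edgeR at an FDR of 0.1, with Benjamini-Hochberg adjustment. Standard errors were the fold change over the square root of F. Genes at 0 in a group were compared with a floor of 3 counts per library. Since no molecular identifiers were used, such floors cover counting error only. For library totals and shares an exact permutation test, two-sided over 20 splits, was used.

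Lists of 23 functions and 10 cell types are described by counts and medians, without a test. The members and lists were chosen with earlier results of these data known. Genes named were those called, the 8 per direction with the widest gap at a mean of at least 50 CPM, up to 3 of smallest p per list, the 6 per direction of smallest p that rested on 1 library, the 10 with most CPM, and checks. Not every one is printed, and some items are not reported here. Alternatives were RLE scaling, no filter, a stricter filter of 20 CPM, the likelihood ratio test, DESeq2 1.42.0, limma-voom 3.58.1 with and without a replicate block, the IP libraries alone, the 3 features kept, and each IP library left out. The animal number pairs IP and input of 1 mouse, and their deviations from the group mean correlated at 0.0057 to 0.192. The code was tested on simulated counts. Coordinates are those of RefSeq on GRCm38, the assembly also called mm10.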

Additional observations from a re-analysis of the deposited data

Results flagged for a closer look

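The ratio of IP to input within an animal was computed on a log2 scale with 0.5 CPM added, for 20 genes and 33 lists. In 8 genes and 2 lists every CFD animal lay on one side of 0 and every HFD animal on the other. The genes had been chosen for their difference in the pulldown. On CFD the pulldown was above and on HFD below its input for Nab2 (difference of the mean log2 ratios, HFD less CFD, -2.32), Rabif (-3.42), Nyap1 (-3.196) and Kansl3 (-2.13). The reverse held for Eif3e (2.04), Serinc1 (1.804), Mesdc2 (2.29) and Tgfb2 (2.38). For Serinc1 the ratios were -1.74, -0.68 and -1.42 on CFD and 0.74, 0.62 and 0.21 on HFD, and for Kansl3 1.13, 1.88 and 1.58 on CFD and -0.86, -0.34 and -0.61 on HFD. The edgeR interaction of the main fit had adjusted p-values from 0.879 to 0.893 for these 8 genes. It compares group means and takes IP and input of 1 animal as independent, so it leaves out the pairing in these ratios. In edgeR's fit with the animal as a replicate block no gene passed either, with a smallest adjusted p of 0.593 over all genes.

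The summed heat shock and unfolded protein response list had ratios of -0.075, -0.24 and -0.44 on CFD and 0.034, 0.11 and 0.22 on HFD, a difference of 0.38. The summed ependymal and choroid plexus list had ratios of -0.72, -0.68 and -1.05 on CFD and 0.69, 0.503 and 0.15 on HFD, a difference of 1.27. For the lists the difference was not tested.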

How the results depend on the processing

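The 4 calls became 217 with no filter, 207 with the likelihood ratio test, 713 with DESeq2 and 8 with the 3 features kept. They became 0 with the GC trend removed (a fit that did not hold 9330117O12Rik), with the 6 IP libraries alone, with limma-voom, with limma-voom and a replicate block on the animal, and at an adjusted p under 0.05. At an unadjusted p under 0.05 the first 4 of these gave 1482, 642, 1282 and 1283 genes. Leaving out 1 IP library gave 0 to 3 calls, with 0 without HFD IP 517 (1437 at an unadjusted p under 0.05), and RLE scaling and the stricter filter gave 4 and 5. Calls of the interaction, 0 in the main analysis, were 117 with DESeq2, 35 with the likelihood ratio test and 42 with no filter, 0 with the replicate block, and 0 to 1 without 1 IP library, with 1 without CFD IP 556. The cause of these changes was not tested. The 2137 genes resting on 1 library became 3228 at a share over 80% and 9499 over 50%.

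Of the fold changes named, none of the 4 called genes changed direction. Abundant uncalled genes near 0 did, with log2 fold changes across the fits without 1 IP library of -0.12 to 0.11 for Map1b, -0.55 to 0.1002 for Slc1a2, -0.074 to 1.09 for Malat1 and -0.35 to 0.31 for Mbp. Recomputed list medians moved by more than their spread in 30 cases and by less in 332. Leaving out a CFD library moved the median of all genes itself to 0.12 to 0.15, against which list medians in those fits are to be read. The part of depth was not tested.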

Other observations

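Circadian clock, glycolysis and cell cycle genes were also listed. Of 19 clock genes, 11 had a fitted change above 0 (median log2 fold change 0.16). Tef, a clock-controlled transcription factor, stood apart from them at 370.00, 435 and 347 CPM in CFD IP and 175, 138 and 149 CPM in HFD IP, a log2 fold change of -1.32 (SE 0.3203, edgeR adjusted p = 0.272) that stayed between -1.41 and -1.203 without any 1 library. Its inputs stood at 219.96, 151 and 197 CPM on CFD and 156, 168 and 116 CPM on HFD, which overlap. Glycolysis and hypoxia genes had 18 of 29 above 0 and a median of 0.094, with a summed level of 7243, 5707 and 6553 CPM on CFD and 6896, 6333 and 6659 CPM on HFD. Cell cycle genes had 13 of 26 above 0 and a median of 0.17 (0 with the 8 genes at or under 3 counts throughout a diet at their bound or left out), and 8 of them rested on 1 library. Mcm5, a DNA replication helicase gene, stood at 8.57, 0 and 14.4 CPM in CFD IP and 0, 0 and 0.115 CPM in HFD IP.

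Nuclear long noncoding RNAs had 7 of 8 tested genes above 0. Malat1, a nuclear speckle RNA, stood at 2586, 3105 and 4578 CPM in CFD IP and 4230.3, 2195 and 10372 CPM in HFD IP, with HFD IP 676 the highest, and its input stood at 10227, 9414 and 9228 CPM on CFD and 6914, 9190.2 and 22024 CPM on HFD, again with animal 676 the highest. Without HFD IP 676 the list's median log2 fold change went from 0.72 to 0.14. Rian, an imprinted noncoding RNA, lay on the other side at 299, 325 and 126 CPM in CFD IP and 57.9, 156 and 98.3 CPM in HFD IP. Blood cell lists were sparse, with 2 neutrophil and platelet genes and 3 erythroid genes tested. The erythroid genes had a median log2 fold change of 0.67, which stayed between 0.28 and 1.37 without any 1 library, and summed to 72.6, 228 and 174 CPM on CFD and 208, 243 and 235 CPM on HFD. Neutrophil and platelet genes summed to 25.05, 4.63 and 13.2 CPM on CFD and 1.35, 1.04 and 3.26 CPM on HFD, and fibroblast and meninges genes to 89.9, 98.05 and 103 and 104, 125 and 183 CPM.

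Of genes with a mean of at least 20 CPM in the other 5 IP libraries, 10 to 89 per library had at most 3 counts in the library left aside, the fewest in HFD IP 676 and the most in CFD IP 556. The exact permutation p between the diets was 0.5 for this number.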
